A study of Saccharomyces cerevisiae with 4 samples.

Results

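The genes described here encode 10 carrier proteins of the inner mitochondrial membrane that move phosphate, organic acids, FAD or iron. They were chosen by gene identifier from the 6673 genes listed in each library, with earlier results of these data known. They are *MIR1* (YJR077C), *PIC2* (YER053C), *DIC1* (YLR348C), *OAC1* (YKL120W), *CTP1* (YBR291C), *ODC1* (YPL134C), *ODC2* (YOR222W), *FLX1* (YIL134W), *MRS3* (YJL133W) and *MRS4* (YKR052C). All 10 had a mean of at least 1 RPKM and entered the comparison of the strains. RPKM scales the reads of a gene by its length and by the reads of its library.

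RNA was sequenced from a budding yeast strain without *PUF3* (*PUF3Δ*, 2 libraries) and from its wild type (WT, 2 libraries). Both were labelled as strain BY4742 with the alleles ura3Δ0, met15Δ0, leu2Δ0 and his3Δ1 and mating type a, while the methods of the study name BY4741. An overnight culture in YPD was diluted into YPEG, in which ethanol and glycerol are the carbon sources and cells must respire, and the cells were collected at 1.0 OD. Nothing in the labels says whether the 2 libraries of a strain came from separate cultures or whether the deletion strain is 1 clone, so the errors and p-values below measure only the spread between these libraries. Puf3p is an RNA-binding protein that binds the 3′ end of many mRNAs for mitochondrial proteins and promotes their decay. The paper states that the effects of RNA-binding proteins on expression are sometimes opposite between growth conditions. The comparison asks how the levels of mRNAs differ when Puf3p is missing, and decay itself was not measured.

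The carriers belong to a family of small membrane proteins, built from repeats of 1 fold, that exchange solutes between the cytosol and the mitochondrial matrix. Respiring yeast uses them to bring in phosphate and ADP for ATP synthesis, to pass organic acids of the TCA cycle in and out of the matrix, and to supply cofactors and iron to the enzymes made there. Several of these carriers exist as pairs of related genes with overlapping substrates.

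The libraries held 6703910 and 8119223 reads on genes in *PUF3Δ*, against 7370059 and 8228693 in WT. The targeted gene *PUF3* had 2 and 6 reads in *PUF3Δ*, against 569 and 761 in WT. Of the marker genes, *LYS2*, which is not among the labelled alleles, had 1 and 4 reads in *PUF3Δ* and 1 in each WT library. The alpha-factor gene *MFALPHA1* had a mean of 1748 RPKM in *PUF3Δ* and 4521 RPKM in WT, against 4.98 and 10.4 RPKM of the a-factor gene *MFA1*, so both strains went against the labelled mating type a. *SPG1* and *SPG4*, genes named for stationary phase, were 31.5 and 60.5 times higher in *PUF3Δ* than in WT, and the part of growth stage in the results below was not tested. All genes tested had a median log2 fold change of -0.39 with the values as deposited. Median-of-ratios scaling, which sets the libraries to the same median ratio, moved it to -0.01. Values are relative within a library and do not give amounts per cell, so for each of the 10 genes the log2 fold change is also given relative to the median of all genes.

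The sequences below show the 2 carrier genes that hold the core element bound by Puf3p, TGTANATA, on the coding strand within 200 nt after the stop codon. The element is in capitals, and the flanks are in lower case.
*ODC2*, chrXV:759254-759276, plus strand: tatttatTGTATATAgaatacct
*FLX1*, chrIX:98355-98378, plus strand: taatttctTGTAAATAtcaaacga
Positions and bases are from RefSeq's R64 genome, in which the element begins at base 8 after the stop codon of *ODC2* and at base 33 after that of *FLX1*. *FLX1* also has the C 2 bases before the element that is known from Puf3p targets, and *ODC2* does not. The element was found in 2 of the 10 carrier genes and in 14.1% of the 5972 coding genes with such a window. With the C required, it was found in 1 of the 10 and in 4.24% of all. The other 8 carrier genes, *MIR1* among them, did not have these letters in the window. A match describes the sequence and does not show binding.

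Most of the carrier genes were lower in *PUF3Δ* than in WT, and *MIR1* stood apart from them by being higher. As deposited, 9 of the 10 passed a Benjamini-Hochberg adjusted p under 0.05 in limma on log2(RPKM + 1), as did 73.1% of all 5860 genes tested. Of the 10, 8 were lower, where 54.2% of all genes were, and *MIR1* was higher, where 18.9% of all genes were. *MRS4* did not pass the test. The libraries of the strains did not overlap for the same 9 genes, with 8 lower against 62.6% of all genes and 1 higher against 24.9%. The median log2 fold change of the 10 genes was -0.90, which is 0.51 below the median of all genes. After median-of-ratios scaling 7 of the 10 were lower and 2, *MIR1* and *MRS4*, were higher, where 33.2% and 33.9% of all genes were. Quantile normalization gave the same counts, against 34.2% lower and 31.9% higher of all genes, and a loess correction for gene length and GC content gave 6 lower and 2 higher, against 32.8% and 32.4%. Because 1 was added before taking logs, fold changes at low RPKM are understated, which touches *FLX1* most.

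**Figure D1:**
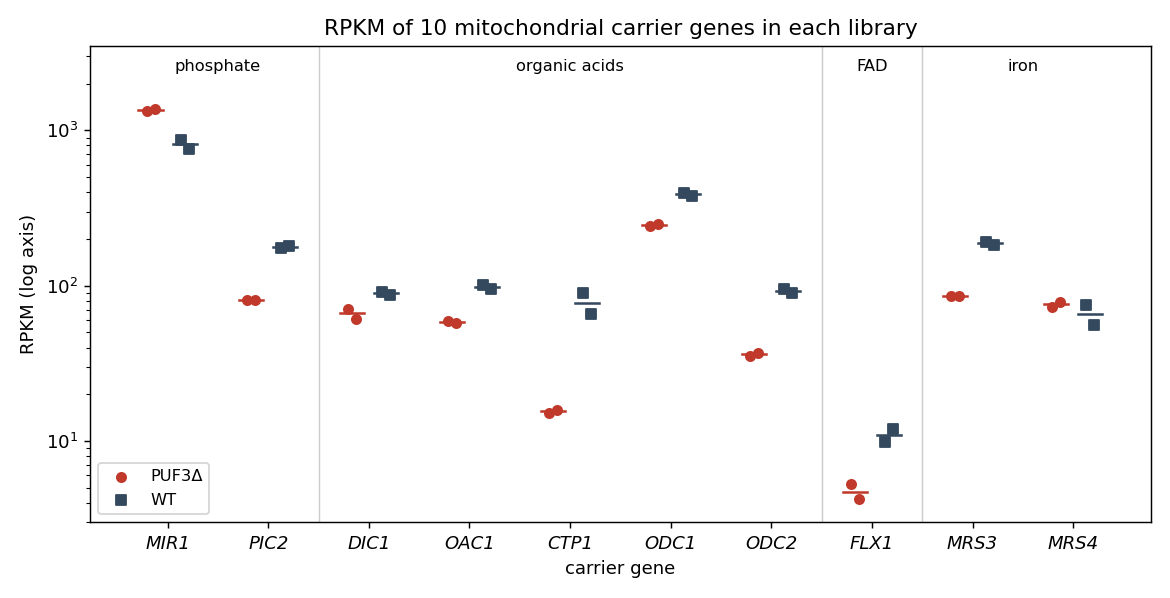
RPKM (log axis) of the 10 carrier genes in each library, with 2 points for *PUF3Δ* on the left and 2 for WT on the right of each gene and a line at their mean. *MIR1* is the highest gene in both strains and clearly higher in *PUF3Δ*, *CTP1* has the widest gap, and only the points of *MRS4* overlap between the strains.

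*MIR1* encodes the main phosphate carrier, which imports the phosphate that ATP synthase joins to ADP. It is a single coding exon at chrX:577255-578190 on the minus strand. *MIR1* had 1339.95 and 1379 RPKM in *PUF3Δ*, against 865.4 and 758.1 RPKM in WT. The strains did not overlap, and *PUF3Δ* was the higher. The mean was 1359 ± 27.3 RPKM in *PUF3Δ* and 811.7 ± 75.9 RPKM in WT (SD, n = 2 each), 1.67 times higher. Its log2 fold change was 0.75 (standard error 0.09, adjusted p = 0.000246 in limma) and lay 1.13 above the median of all genes. It was the most deeply sequenced gene of the 10, with 5845 to 10488 reads in a library.

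*PIC2* encodes the second phosphate carrier, which also transports copper into the matrix. It lies at chrV:258737-259639 on the minus strand. *PIC2* had 81.2 and 80.8 RPKM in *PUF3Δ*, against 174.4 and 179.5 RPKM in WT. The 2 libraries of each strain were close together and far from those of the other. The gene was 2.18 times lower in *PUF3Δ*. In limma this was -1.12 on the log2 scale (standard error 0.08, adjusted p = 2.86e-05), or -0.73 relative to all genes. The phosphate carriers thus lay on opposite sides of the median of all genes.

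*DIC1* encodes the dicarboxylate carrier, which exchanges malate or succinate for phosphate. It lies at chrXII:826977-827873 on the minus strand, and its interval in the files overlaps YLR349W, which was listed at 2.06 and 3.88 RPKM in *PUF3Δ* and 14.4 and 13.2 RPKM in WT. The part of this overlap was not tested. *DIC1* had 71.1 and 61.4 RPKM in *PUF3Δ*, against 91.3 and 87.0 RPKM in WT. The strains did not overlap, but the *PUF3Δ* libraries were farther apart than the WT libraries. This is a log2 fold change of -0.43, or -0.04 relative to the median of all genes (standard error 0.10, adjusted p = 0.00666 in limma). It did not pass the test after median-of-ratios scaling (log2 fold change -0.04, adjusted p = 0.741 in limma) or without *PUF3Δ* replicate 2 (-0.32, adjusted p = 0.0692).

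*OAC1* encodes the oxaloacetate carrier, which also transports sulfate and a precursor of leucine. It lies at chrXI:217344-218318 on the plus strand. *OAC1* had 59.3 and 57.4 RPKM in *PUF3Δ*, against 100.9 and 95.3 RPKM in WT. The strains did not overlap, and the fall was larger than the spread between the libraries of either strain. In log2 terms the change was -0.74 (standard error 0.08, adjusted p = 0.000206 in limma), or -0.35 relative to all genes. A loess correction of each library for gene length and GC content left -0.18, which did not pass the test (adjusted p = 0.0970 in limma).

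*CTP1*, which encodes the citrate carrier, fell most of the 10 genes. It lies at chrII:783673-784572 on the minus strand. *CTP1* had 15.2 and 15.9 RPKM in *PUF3Δ*, against 89.5 and 66.2 RPKM in WT. The WT libraries differed from each other more than for most of the other genes, yet the lower of them was still far above both *PUF3Δ* libraries. The mean was 15.5 ± 0.44 RPKM in *PUF3Δ* and 77.8 ± 16.4 RPKM in WT (SD, n = 2 each), 5.01 times lower in *PUF3Δ*. Its log2 fold change was -2.24 (standard error 0.15, adjusted p = 2.60e-05 in limma), or -1.85 relative to all genes. The *PUF3Δ* values came from 92 and 116 reads.

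*ODC1* encodes the more abundant of the related 2-oxodicarboxylate carriers, which exchange 2-oxoglutarate and related acids across the inner membrane. It lies at chrXVI:298571-299503 on the minus strand. *ODC1* had 241.6 and 250.4 RPKM in *PUF3Δ*, against 394.8 and 379.7 RPKM in WT. The strains did not overlap, and *ODC1* stayed the second highest of the 10 genes in both. In limma the log2 fold change was -0.65 (standard error 0.07, adjusted p = 0.000199), or -0.27 relative to all genes.

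*ODC2*, the related gene with the element printed above, lies at chrXV:758330-759253 on the plus strand. *ODC2* had 35.3 and 37.1 RPKM in *PUF3Δ*, against 95.3 and 89.99 RPKM in WT. It was 2.56 times lower in *PUF3Δ*, the second largest fall of the 10 genes. On the log2 scale the difference was -1.33 (standard error 0.09, adjusted p = 2.66e-05 in limma), or -0.94 relative to all genes.

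*FLX1* encodes the carrier that moves FAD, the cofactor of succinate dehydrogenase and other flavoproteins, across the inner membrane. It lies at chrIX:97395-98330 on the plus strand and is the other gene with the element. *FLX1* had 5.25 and 4.21 RPKM in *PUF3Δ*, against 9.85 and 11.9 RPKM in WT. It was the lowest gene of the 10 in every library, with 33 and 32 reads in *PUF3Δ* against 68 and 92 reads in WT, so counting error weighs most on this gene. The log2 fold change was -1.05 (standard error 0.19, adjusted p = 0.00196 in limma), or -0.67 relative to all genes. Both carrier genes with the element were lower as deposited, as were 8 of the 10 carrier genes and 54.2% of all genes tested.

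*MRS3* and *MRS4* encode related carriers that import iron for the synthesis of heme and iron-sulfur clusters. They were first found as multicopy suppressors of a splicing defect in mitochondrial RNA. *MRS3* lies at chrX:160619-161563 on the plus strand. *MRS3* had 86.1 and 85.4 RPKM in *PUF3Δ*, against 192.1 and 182.2 RPKM in WT, 2.18 times lower in *PUF3Δ* without overlap. Its log2 fold change was -1.12 (standard error 0.08, adjusted p = 3.06e-05 in limma), or -0.73 relative to all genes.

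*MRS4* lies at chrXI:532550-533464 on the minus strand. *MRS4* had 73.4 and 78.1 RPKM in *PUF3Δ*, against 75.4 and 55.6 RPKM in WT. It was the only carrier gene of the 10 in which the strains overlapped, since the first WT library lay between the *PUF3Δ* libraries. The log2 fold change was 0.22, with a 95% interval from -0.12 to 0.56 (standard error 0.14, adjusted p = 0.197 in limma), which was 0.61 above the median of all genes. The call depended on the scaling, and the size of the change on which WT library was used. After median-of-ratios scaling the log2 fold change was 0.61 (adjusted p = 0.00955 in limma). As deposited, it was 0.44 without WT replicate 1 and 0.0066 without WT replicate 2.

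**Figure D2:**
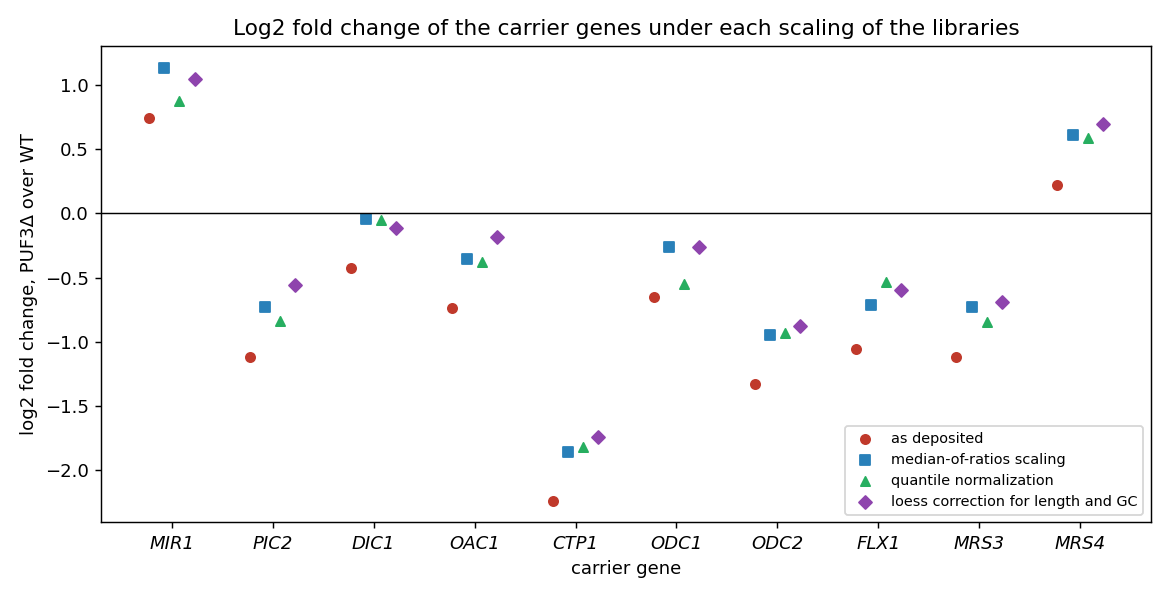
Log2 fold change of *PUF3Δ* over WT for the 10 carrier genes as deposited, after median-of-ratios scaling, after quantile normalization and after a loess correction for gene length and GC content. The 10 genes keep their sign in all 4, while *DIC1* moves from -0.43 to between -0.11 and -0.04 and *MRS4* from 0.22 to between 0.59 and 0.70.

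The ratio between related carriers within 1 library, given as the difference of log2(RPKM + 1), does not change when a library is scaled by 1 factor, apart from the pseudocount. In all 3 pairs the ratio differed between the strains without overlap. The direction was not the same, since the more abundant gene of the pair gained over its partner in *MIR1/PIC2* and *ODC1/ODC2* and lost in *MRS3/MRS4*.

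*MIR1* was 16.5 and 17.1 times *PIC2* in *PUF3Δ*, against 4.96 and 4.22 times in WT. The log2 ratio was 4.05 ± 0.03 in *PUF3Δ* and 2.19 ± 0.16 in WT (SD, n = 2 each), a difference of 1.86. The summed level of the pair was 1421 and 1459 RPKM in *PUF3Δ* against 1039.8 and 937.5 RPKM in WT, so the sum was higher in *PUF3Δ* although *PIC2* was lower.

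*MRS3* was 1.17 and 1.09 times *MRS4* in *PUF3Δ*, against 2.55 and 3.28 times in WT. The log2 ratio was 0.18 ± 0.07 in *PUF3Δ* and 1.52 ± 0.25 in WT (SD, n = 2 each), a difference of -1.34. The iron carriers were thus at nearly the same level in *PUF3Δ*, and *MRS3* led in both WT libraries. Their summed level was 159.5 and 163.5 RPKM in *PUF3Δ*, against 267.4 and 237.7 RPKM in WT.

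*ODC1* was 6.84 and 6.74 times *ODC2* in *PUF3Δ*, against 4.14 and 4.22 times in WT. The log2 ratio was 2.73 ± 0.01 in *PUF3Δ* and 2.05 ± 0.02 in WT (SD, n = 2 each), a difference of 0.68, the smallest of the 3 pairs. After quantile normalization, which does not scale a library by 1 factor, the difference was 0.38. Both genes of this pair were lower in *PUF3Δ*, and the summed level was 277.0 and 287.6 RPKM in *PUF3Δ* against 490.2 and 469.7 RPKM in WT.

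For each of the 3 pairs an exact two-sided permutation test over the 4 libraries gave p = 0.333, the smallest that 2 against 2 libraries allow, and 0.333 after Benjamini-Hochberg adjustment over the 3 pairs. The test therefore could not pass a threshold of 0.05, and the differences are given as values.

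**Figure D3:**
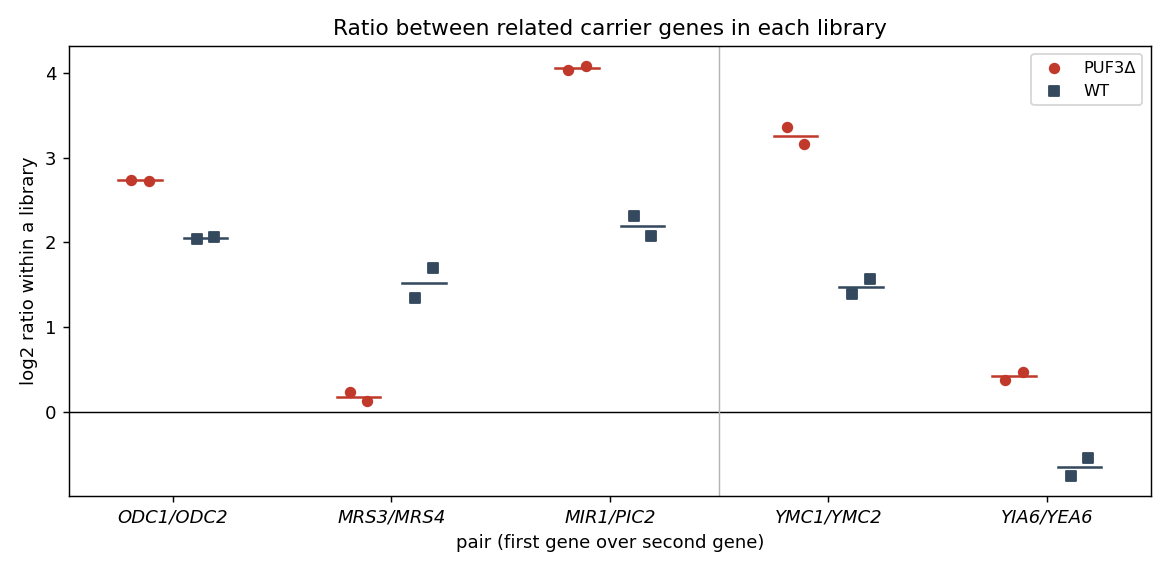
Log2 ratio of the first to the second gene of a pair in each library, with 2 points for *PUF3Δ* on the left and 2 for WT on the right and a line at their mean. The 3 pairs left of the grey line are among the 10 carriers described, and the 2 on the right are other carriers. The strains do not overlap in any of the 5. With the genes in the order drawn, only *MRS3/MRS4* has the lower ratio in *PUF3Δ*, but the sign depends on that order. In *YIA6/YEA6* the second gene is the higher in WT, so there too the gene that led in WT lost to its partner. A further pair of other carriers, *PET9/AAC3*, is not drawn. Its log2 ratio was 2.65 higher in *PUF3Δ*, with *AAC3* below the filter on mean RPKM.

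Reads could be shared between related genes if long stretches were alike, so the coding sequences were compared. The longest run that both genes of a pair share is shown in capitals for the 2 closest pairs.
*MRS3* and *MRS4*, chrX:161476-161493 and chrXI:532620-532637: GAAACCAAGGATAGTGGC
*ODC1* and *ODC2*, chrXVI:298851-298866 and chrXV:758955-758970: AAAAGACCAGAAATGA
The coding sequences were 70.4% identical over 914 aligned bases in *MRS3/MRS4*, 66.3% over 912 in *ODC1/ODC2* and 54.0% over 883 in *MIR1/PIC2*, where the longest shared run was 10 nt. Of all stretches of 32 nt in *MRS3*, 0.438% matched *MRS4* with at most 2 mismatches, the limit the authors set in mapping, and none did in *ODC1/ODC2* or *MIR1/PIC2*. The read length is not given in the sources used here.

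The make-up of the group differed between the strains, while the comparison of its sum depended on the scaling. The summed level of the 10 genes was 2009 and 2049 RPKM in *PUF3Δ*, against 2089 and 1905 RPKM in WT, and the strains overlapped. After median-of-ratios scaling the sums were 2318 and 2317 in *PUF3Δ*, against 1824 and 1659.6 in WT, without overlap. Shares within a library do not depend on scaling by 1 factor. *MIR1* made up 66.7% and 67.3% of this sum in *PUF3Δ*, against 41.4% and 39.8% in WT. The other 9 genes together had 668.6 and 670.8 RPKM in *PUF3Δ*, against 1224 and 1147 RPKM in WT.

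The order of the levels was kept at the top and the bottom and changed in between. In both strains *MIR1* came first, then *ODC1*, *MRS3* and *PIC2*, and *FLX1* came last, and each of these was separate from its neighbours in the order by the range of its 2 libraries, a weak measure of spread. Between *PIC2* and *FLX1* the order in *PUF3Δ* was *MRS4*, *DIC1*, *OAC1*, *ODC2* and *CTP1*, with no overlap between neighbours. In WT it was *OAC1*, *ODC2*, *DIC1*, *CTP1* and *MRS4*, and each of these 5 overlapped its neighbour among them. *MRS4* was thus the lowest of these 5 by mean in WT and the highest in *PUF3Δ*.

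The rest of the mitochondrial carrier family, 25 other genes, gives the setting for these values. Of the 24 that were tested, 15 were lower and 5 higher in *PUF3Δ* as deposited and 4 did not pass the test, with a median log2 fold change of -0.53, beside 54.2% lower and 18.9% higher of all genes. After median-of-ratios scaling 7 were lower and 8 higher, beside 33.2% and 33.9% of all genes. As deposited, 3 were higher when the first or the second *PUF3Δ* library was left out. *AAC3*, an ADP/ATP carrier used when oxygen is low, was below the filter, with 2 and 3 reads in *PUF3Δ* against 9 and 11 reads in WT.

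The largest increase in the family was in *PET9*, the major ADP/ATP carrier, which works beside *MIR1* in supplying ATP synthase. *PET9* had 6246 and 7192 RPKM in *PUF3Δ*, against 1796 and 1931 RPKM in WT. In limma its log2 fold change was 1.85 (standard error 0.10, adjusted p = 1.48e-05), or 2.23 relative to all genes. It made up 67.0% and 69.4% of the summed level of all 35 carriers in *PUF3Δ*, against 33.8% and 36.4% in WT. The share of the 10 genes in that sum was 21.6% and 19.8% in *PUF3Δ*, against 39.3% and 35.9% in WT. Outside the 10 genes, *AAC1*, a minor ADP/ATP carrier, was next with a log2 fold change of 0.66 (standard error 0.11), or 1.04 relative to all genes.

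The largest falls outside the 10 genes were in *YMC2*, a carrier of organic acids, and *RIM2*, a carrier of pyrimidine nucleotides, at -1.73 ± 0.15 and -1.65 ± 0.13 on the log2 scale (± standard error), or -1.35 and -1.27 relative to all genes. Both falls were smaller than that of *CTP1*. *SFC1*, the succinate-fumarate carrier needed for growth on ethanol, had 177.3 and 193.9 RPKM in *PUF3Δ*, against 241.4 and 335.8 RPKM in WT. Its log2 fold change of -0.62 (adjusted p = 0.00798 in limma) lay 0.23 below the median of all genes and did not pass the test after median-of-ratios scaling (-0.23, adjusted p = 0.220) or without *PUF3Δ* replicate 1 (-0.55, adjusted p = 0.0581).

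**Figure D4:**
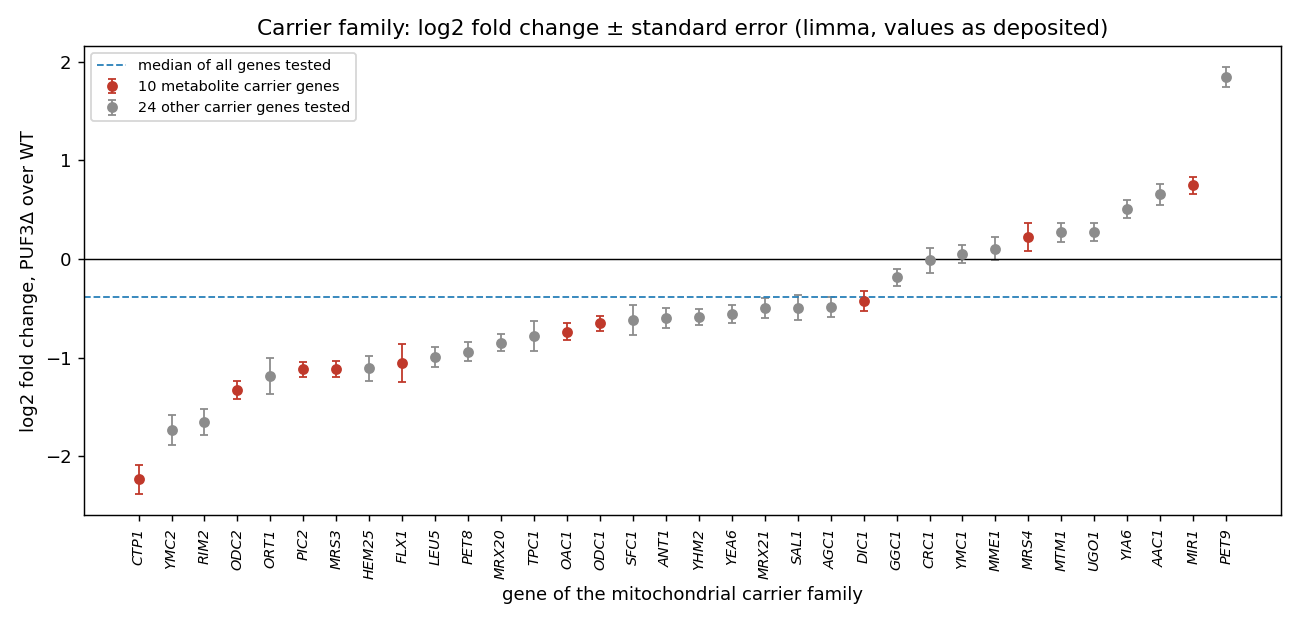
Log2 fold change of *PUF3Δ* over WT with its standard error for the 34 genes of the carrier family that were tested, in rising order, with the 10 carriers described in red and the median of all genes as a dashed line. *CTP1* is the lowest of the family, *MIR1* is second only to *PET9*, and 8 of the 10 lie below the dashed line.

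Other pairs of the family also shifted. *YMC1*, whose interval overlaps the listed gene YPR059C, was 12.4 and 10.7 times *YMC2* in *PUF3Δ*, against 2.71 and 3.08 times in WT, and the NAD carrier gene *YIA6* was 1.298 and 1.392 times *YEA6* in *PUF3Δ*, against 0.586 and 0.682 times in WT. *YIA6* is 1 of 7 of the 25 other carriers with TGTANATA in the 200 nt after the stop codon (14.1% of all coding genes), beside *AGC1*, *LEU5*, *MTM1*, *MME1*, *MRX20* and *MRX21*. Of these 7, *YIA6* (log2 fold change 0.51) and *MTM1* (0.27) were higher, *MME1* (0.10, adjusted p = 0.447 in limma) did not pass the test, and *AGC1* (-0.48), *LEU5* (-0.99), *MRX20* (-0.85) and *MRX21* (-0.50) were lower as deposited. After median-of-ratios scaling *AGC1* (-0.11, adjusted p = 0.378) and *MRX21* (-0.11, adjusted p = 0.337) did not pass the test and *MME1* did (0.48, adjusted p = 0.00820). The counts of 2 higher and 4 lower as deposited stand beside 18.9% and 54.2% of all genes. With the C 2 bases before it required, the element was found in 3 of the 25 other carriers, *YIA6*, *MTM1* and *MRX21*, and in 4.24% of all coding genes. Within 300 nt after the stop codon it was found in 5 of the 25, *RIM2* among them, and in 4.7% of all coding genes.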

How the data were processed

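The authors aligned the reads with SOAP2 (version, strand of counting and treatment of reads with several hits are not given in the sources used here; the submitters' notes name R64) and deposited 1 RPKM value per gene and library. RPKM times gene length, scaled by a library total fitted from the values, gave whole reads for 100% of the values (within 0.05 reads). The read counts printed were recovered in this way. Of the 5984 genes matched by identifier, 97.1% had the same length as in R64, but only 16.6% had the same start and end. All positions printed therefore come from RefSeq's R64 annotation.

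Libraries were grouped by the titles. Replicates differed by more than sampling noise (chi-square per degree of freedom of 4.60 in *PUF3Δ* and 11.7 in WT). *PUF3Δ* was compared with WT by limma 3.58.1 (R 4.3.3, trended variance, no block), taking log2(RPKM + 1) of every gene that averaged 1 RPKM or more. On simulated reads for this comparison (5839 genes) limma recovered 100% of 90 changes of 1 log2 unit and 100% of 110 of 2, with 10 false calls. The simulation gave every gene the same spread beyond counting noise in both strains. Its changes were planted in both directions, only in genes above a minimum of expected reads. The real replicates differed more in WT than in *PUF3Δ*, so these rates may not hold for the real libraries. The genes, lists and pairs were chosen with earlier results of these data known. All 10 genes were named by identifier; of the other carriers, pyruvate carriers and porins together, the 3 called genes of largest change in each direction, and the pairs, *SFC1* and *PET9*. *AGC1*, *LEU5*, *MTM1*, *MME1*, *MRX20* and *MRX21* were named for their sequence, and the pyruvate carriers outside this rule, after their values were seen. The alternatives were another pseudocount, other filters, median-of-ratios and quantile scaling, voom on recovered reads, a loess correction, a replicate block, and each replicate left out.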

Additional observations from a re-analysis of the deposited data

How the results depend on the processing

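The direction of all 10 genes was kept under every alternative run for them, and that of the 3 pair ratios under another or no pseudocount, median-of-ratios scaling, the replicate block, each library left out and, added after seeing the data, quantile normalization (1.72 for *MIR1/PIC2*, -1.44 for *MRS3/MRS4*, 0.38 for *ODC1/ODC2*) and the loess correction (1.60, -1.39 and 0.62). Under median-of-ratios scaling, quantile normalization and the loess correction, 1983, 1868 and 1822 genes were higher and 1942, 2003 and 1841 lower in *PUF3Δ* across the genome, against 1108 and 3175 as deposited. The same 3 alternatives called 2 of the 10 genes higher in each case, and 8, 8 and 9 of the other carriers higher and 7, 9 and 9 lower. *DIC1* was then no longer past the threshold (log2 fold change -0.041, -0.052 and -0.11) and *MRS4* was (0.61, 0.59 and 0.70), and *OAC1* was lost under the loess correction (-0.18). Without 1 library each, 1 to 2 of the 10 genes were called higher and 7 to 8 lower, 3 to 4 other carriers higher, and between 826 and 1222 genes higher and 2629 and 3147 lower across the genome. The log2 fold change of *DIC1* then lay between -0.53 and -0.32, that of *OAC1* between -0.78 and -0.70, and that of *MRS4* between 0.0066 and 0.44. The differences of the log2 ratios lay between 1.75 and 1.98 for *MIR1/PIC2*, -1.52 and -1.16 for *MRS3/MRS4* and 0.67 and 0.69 for *ODC1/ODC2*. *YMC1* changed sign without WT replicate 1, to -0.0064 (range without 1 library -0.0064 to 0.11). With the C required, 1 of the 10 genes had the element. The cause of these shifts was not tested. Deviations from the strain mean were nearly uncorrelated between libraries of the same replicate number (-0.014 over 5860 genes). This value cannot show whether such libraries were handled together, and the labels do not say. A fit with the replicate block called 1067 genes higher and 3117 lower, with 1 and 8 of the 10. Depth limits *FLX1* and *AAC3* most.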

Other observations

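Carriers outside the family were measured in the same libraries. *MPC2*, a subunit of the mitochondrial pyruvate carrier, had 152.2 and 182.1 RPKM in *PUF3Δ*, against 377.9 and 312.7 RPKM in WT, or -1.04 on the log2 scale (standard error 0.12, adjusted p = 0.000245 in limma). The other pyruvate carrier genes, *MPC1* and *MPC3*, did not pass the test as deposited. Their log2 fold changes were 0.08 (95% interval -0.29 to 0.45) and -0.15 (95% interval -0.34 to 0.03). Both were called higher after median-of-ratios scaling (0.47, adjusted p = 0.0316, and 0.23, adjusted p = 0.0264) and after the loess correction for gene length and GC content (0.85, adjusted p = 0.00116, and 0.49, adjusted p = 0.000786), and neither after quantile normalization (0.21, adjusted p = 0.241, and -0.05, adjusted p = 0.584). The porin genes of the outer membrane moved apart. *POR1*, the major porin, had 7262 and 6664 RPKM in *PUF3Δ*, against 4680 and 4975 RPKM in WT (log2 fold change 0.53, standard error 0.09, adjusted p = 0.00158 in limma), and *POR2*, its minor relative, had 12.3 and 10.6 RPKM in *PUF3Δ*, against 29.3 and 26.3 RPKM in WT (-1.21, standard error 0.13, adjusted p = 0.000169).

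For each of the 10 carrier genes, the most similar pattern over the 4 libraries was sought among the other 34 genes of the family, as the Euclidean distance of log2(RPKM + 1) centred on the mean of the gene. *PIC2* and *MRS3* were nearest to each other (0.083). *ODC1* was nearest to *YHM2* (0.089), a carrier of citrate and 2-oxoglutarate, and *OAC1* to *ODC1* (0.112). *MIR1* was nearest to *YIA6* (0.294), *MRS4* to *MTM1* (0.237), a carrier linked to manganese and iron, and *CTP1* to *YMC2* (0.566), the largest distance of the 10. No gene of the pairs *MIR1/PIC2*, *ODC1/ODC2* and *MRS3/MRS4* was nearest to its partner. With 4 libraries in 2 strains, these distances mostly describe the size of the difference between the strains.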
